A study of Mus musculus with 12 samples.

Results

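Glycolysis, the exchange of lactate and the uptake of glucose were followed as 34 genes through both RNA-seq experiments of the study, out of 55487 genes in each count table. The genes were chosen by name and matched to Ensembl identifiers in the GRCm38 annotation, and they cover 16 steps, from the hexokinases (Hk1, Hk2, Hk3) to lactate dehydrogenase, the lactate and glucose carriers, the pyruvate dehydrogenase kinases and Tigar. Bone marrow-derived macrophages (BMMs) came from C57BL/6 mice, given as 8 weeks old, after ovariectomy (OVX), the surgical model of estrogen loss, or after a sham operation, and were grown from limb marrow with macrophage colony-stimulating factor. There were 3 libraries in each of these groups. Mesenchymal stem cells (MSCs) were adherent marrow cells of passage 3 from mice of the same strain and age. They were kept alone (MSC), with RAW264.7 cells, a mouse leukemic macrophage line (MSC+RAW), or with RAW264.7 cells that had been stimulated with lipopolysaccharide (LPS), the bacterial endotoxin (MSC+RAW-LPS). Each of these groups had 2 libraries. The labels do not say whether a membrane kept the RAW264.7 cells apart from the MSCs, nor whether libraries of a group came from separate animals or cultures, so p-values measure the spread between these libraries only.

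Glycolysis splits glucose into pyruvate in the cytosol and yields ATP without oxygen. Glucose enters through carriers of the Slc2a family, is trapped by hexokinase, and is committed to the pathway by phosphofructokinase 1, whose strongest activator, fructose 2,6-bisphosphate, is made by the Pfkfb enzymes. Pyruvate is then either reduced to lactate, which leaves through Slc16a carriers, or enters mitochondria, where the pyruvate dehydrogenase kinases restrain its oxidation. Macrophages activated by LPS are known for fast glycolysis and lactate release, and marrow stromal cells change their reliance on glycolysis as they become osteoblasts.

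The BMM libraries held between 17012923 and 42401570 counts and the MSC libraries between 29823130 and 45367105. Sham replicates 2 and 3 were nearly identical, as were both MSC+RAW libraries. Each of these pairs was counted as 1 sample, which left n = 3 for OVX, 2 for sham, 2 for MSC, 1 for MSC+RAW and 2 for MSC+RAW-LPS. The lone MSC+RAW sample was assumed to vary like the other groups. Defining macrophage markers were abundant in the libraries labelled MSC, also in those kept without RAW264.7 cells: there Lyz2 stood at 21610 to 21700 CPM (counts scaled to a common library size), Csf1r at 1061 to 1161 and Ptprc at 167 to 171, while Thy1 was at 0.293 to 0.449. All 16 macrophage markers examined reached 1 CPM in each of the 12 libraries, and 12 or 13 of 14 stromal markers did so in the MSC groups, with Col1a1 at 454 to 795. The summed macrophage markers were 28310 to 28350 CPM in MSC, 36160 to 36720 in MSC+RAW and 14790 to 15350 in MSC+RAW-LPS, and the summed stromal markers were 2933 to 3106, 2674 to 2709 and 4310 to 4352. The BMM libraries also held 13 or 14 of the 14 stromal markers, with a sum of 7627 to 8484 CPM. The values below therefore describe libraries of mixed marker content in both experiments. In such bulk RNA, fewer cells of a type and less RNA per cell cannot be told apart.

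All 34 genes have a row in both tables, and 33 were detected at 1 CPM or more in each of the 12 libraries. The exception was Pklr, the pyruvate kinase of liver and red cells, which had 0 counts in 11 libraries and was not tested. Together the 34 genes took 6968 to 7892 CPM in OVX, 10180 to 10970 in sham, 7190 to 7710 in MSC, 12510 to 12730 in MSC+RAW and 12290 to 14170 in MSC+RAW-LPS. A gene was called where the Benjamini-Hochberg adjusted p of the edgeR quasi-likelihood test, taken over all genes tested, was at most 0.05. Changes are on the log2 scale unless given as a fold. A gene that was not called is not shown to be unchanged.

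The genes with the largest called rise in MSC+RAW-LPS against MSC were Pfkfb3, Slc2a1, Ldha and Slc16a3, and the sequence before their start sites is shown for these 4 genes for that reason. The 250 bases upstream of the first start listed by RefSeq for each gene (GRCm38.p6) are given 5′ to 3′ on the strand of the gene, and capitals mark ACGTG or GCGTG on either strand, the core letters of the site bound by hypoxia-inducible factor (HIF).
Pfkfb3 (chr2:11553930-11554179, minus strand): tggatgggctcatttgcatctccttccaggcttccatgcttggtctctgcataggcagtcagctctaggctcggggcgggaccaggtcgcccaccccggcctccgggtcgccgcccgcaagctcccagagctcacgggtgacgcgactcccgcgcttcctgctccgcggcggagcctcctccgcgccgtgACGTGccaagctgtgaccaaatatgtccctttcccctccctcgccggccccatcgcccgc
Slc2a1 (chr4:119108495-119108744, plus strand): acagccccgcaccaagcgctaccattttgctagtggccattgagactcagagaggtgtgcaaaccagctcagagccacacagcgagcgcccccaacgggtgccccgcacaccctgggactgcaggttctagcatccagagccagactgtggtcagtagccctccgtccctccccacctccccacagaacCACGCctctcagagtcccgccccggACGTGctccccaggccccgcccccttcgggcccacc
Ldha (chr7:46845554-46845803, plus strand): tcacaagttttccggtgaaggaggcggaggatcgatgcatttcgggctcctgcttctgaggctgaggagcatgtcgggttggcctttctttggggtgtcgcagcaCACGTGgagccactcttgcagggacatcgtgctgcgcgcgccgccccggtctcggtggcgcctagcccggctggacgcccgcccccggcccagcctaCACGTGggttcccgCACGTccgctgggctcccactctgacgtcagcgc
Slc16a3 (chr11:120948817-120949066, plus strand): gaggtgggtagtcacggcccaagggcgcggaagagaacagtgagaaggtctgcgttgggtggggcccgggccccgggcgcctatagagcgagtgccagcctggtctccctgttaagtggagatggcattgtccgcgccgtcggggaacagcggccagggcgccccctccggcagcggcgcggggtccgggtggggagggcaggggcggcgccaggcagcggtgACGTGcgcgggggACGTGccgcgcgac
The Pfkfb3 window held 1 such core, which began 60 bases before the start, and the Slc2a1 window held 2, at 61 and 36 bases. The Ldha window held 5, between 145 and 34 bases before the start, of which 4 came from 2 copies of CACGTG, a palindrome that contains the core on each strand. The Slc16a3 window held 2, at 27 and 14 bases. Among all 32851 windows of this length, 38.6% held at least 1 core and 6.0% held CACGTG. Windows were found for 33 of the 34 genes, and 24 of them held a core. GGGCGG, the GC box, occurred in each of the 4 windows, in 18 of the 33 and in 32.7% of all windows. These matches describe letters only and are not evidence of binding.

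**Figure D1:**
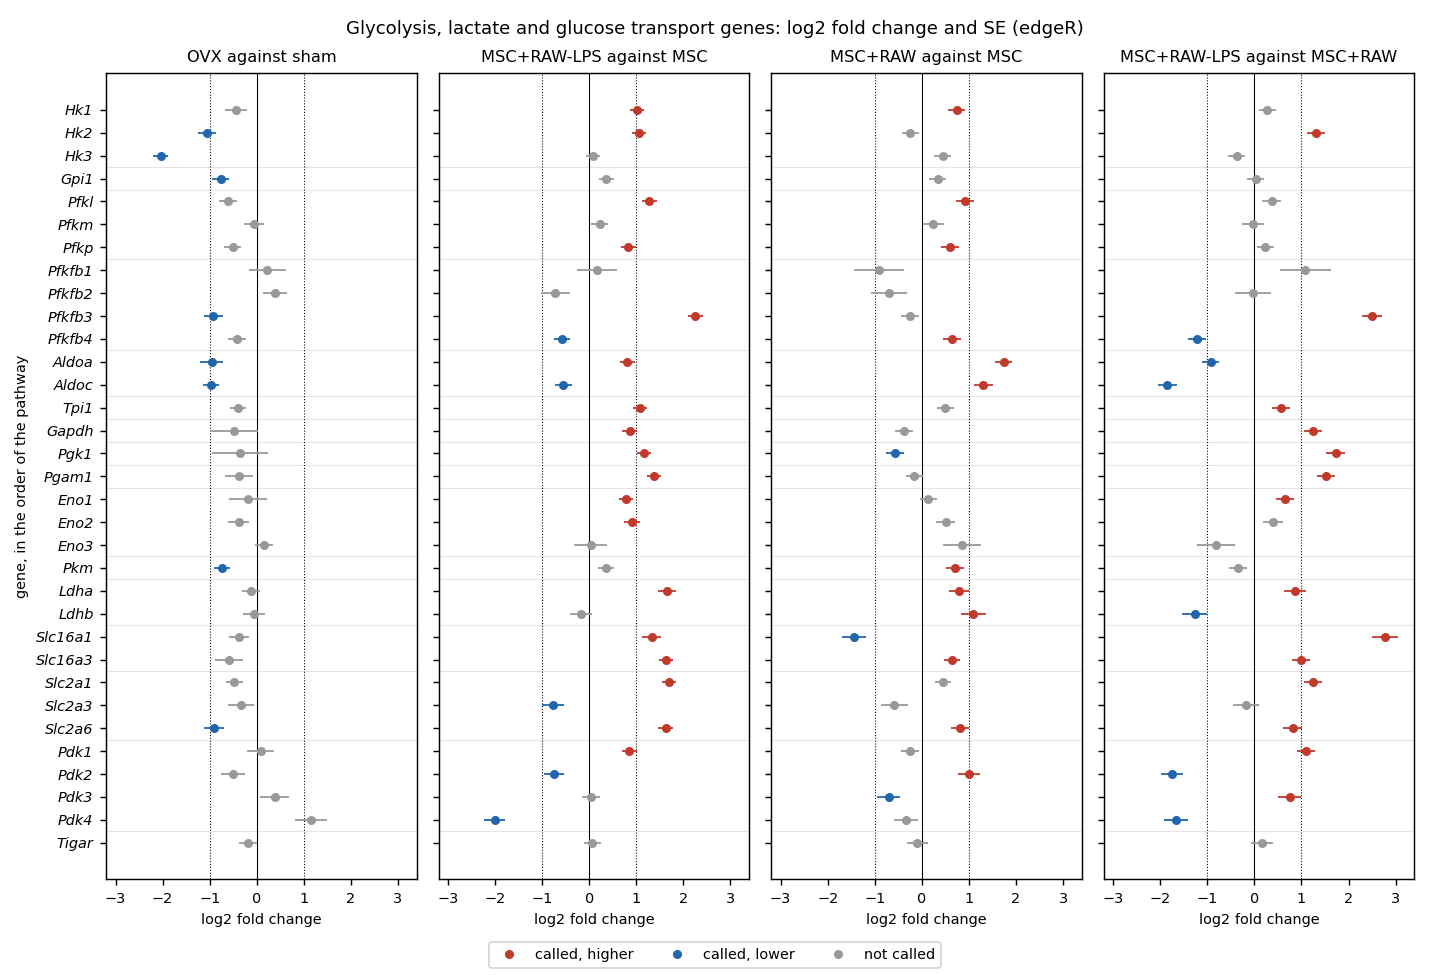
Log2 fold change (x axis) of the 33 tested genes in the 4 comparisons, with genes in pathway order on the y axis, bars of 1 SE and dotted lines at a 2-fold change. Colored points passed the edgeR adjusted p of 0.05. In OVX the 8 called genes lie to the left of 0, and in MSC+RAW-LPS against MSC 18 of the 23 called genes lie to the right.

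In BMMs, OVX was compared with sham to ask how the macrophage transcriptome differs after loss of the ovaries. Of the 33 genes tested, 8 were called, all lower in OVX, and 0 were called higher. Among all 16768 genes tested, 13.1% were called, 5.83% as lower and 7.25% as higher. The median log2 fold change of the 33 genes was -0.40, against -0.0087 over all genes tested, and 27 of the 33 were below 0. At a change of at least 2-fold, Hk2 and Hk3 were called, both lower and 0 higher, while 8.46% of all genes passed (3.08% lower, 5.39% higher). The 8 genes were the hexokinases Hk2 and Hk3, the isomerase Gpi1, Pfkfb3, both aldolases, Pkm and the glucose carrier Slc2a6.

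Hk3, the hexokinase typical of myeloid cells (GRCm38 chr13:55005985-55021385, minus strand), differed most. Its levels were 20.6, 22.8 and 22.1 CPM in OVX replicates 1 to 3 and 92.9, 88.3 and 83.7 CPM in sham replicates 1 to 3. The groups were far apart compared with their own spread, and Hk3 fell by 2.04 on the log2 scale (SE 0.17, edgeR adjusted p = 0.00179), a 4.12-fold difference. Hk2, the inducible hexokinase bound to the outer mitochondrial membrane (chr6:82725025-82774454, minus strand), was at 42.3, 32.7 and 40.4 CPM in OVX and at 83.9, 72.4 and 76.9 CPM in sham. These groups did not overlap either, and Hk2 fell by 1.06 (SE 0.19, edgeR adjusted p = 0.0124). Hk1, the housekeeping hexokinase, was at 51.6, 61.3 and 74.7 CPM in OVX and at 68.6, 106 and 93.4 CPM in sham. OVX replicate 3 exceeded sham replicate 1 here, and the difference of -0.43 (SE 0.23) was not called (edgeR adjusted p = 0.252).

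Gpi1, which turns glucose 6-phosphate into fructose 6-phosphate, was at 354 to 422 CPM in OVX and 596 to 694 CPM in sham and fell by 0.76 (SE 0.18, edgeR adjusted p = 0.0303). Pfkfb3, the Pfkfb enzyme with the strongest bias toward making the phosphofructokinase activator, was at 49.0, 37.0 and 36.6 CPM in OVX and 78.2, 75.2 and 75.5 CPM in sham. All sham libraries lay above all OVX libraries, and Pfkfb3 fell by 0.92 (SE 0.19, edgeR adjusted p = 0.0212). Pfkfb1, Pfkfb2 and Pfkfb4 had changes of 0.23, 0.38 and -0.42 and were not called. Among the subunits of phosphofructokinase 1, Pfkl was at 102, 113 and 95.7 CPM in OVX and 140, 165 and 180 CPM in sham, without overlap, and its change of -0.61 (SE 0.18) missed the limit (edgeR adjusted p = 0.064). Pfkp had a change of -0.51 and Pfkm one of -0.061, neither of them called.

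Aldoa, the main aldolase, which splits fructose 1,6-bisphosphate, was at 828, 1086 and 1098 CPM in OVX and at 1464, 2463 and 2373 CPM in sham. Sham replicate 1 stood well below the other sham libraries and still above OVX. Aldoa fell by 0.96 (SE 0.25, edgeR adjusted p = 0.04). It overlaps Fam57b on the opposite strand, and because the strand setting of the counting is not stated, reads of these genes may have been mixed. Aldoc, the aldolase best known from brain, was at 25.8, 24.9 and 28.2 CPM in OVX and 48.8, 54.6 and 53.9 CPM in sham, and fell by 0.98 (SE 0.17, edgeR adjusted p = 0.0118). Tpi1, which interconverts the triose phosphates, was at 803, 870 and 802 CPM in OVX and 1110, 1051 and 1054 CPM in sham. The groups did not overlap, but the change of -0.40 was not called (edgeR adjusted p = 0.149).

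Pkm, which makes pyruvate in most tissues, was at 1491, 1820 and 1699 CPM in OVX and 2734, 2810 and 2780 CPM in sham. It fell by 0.74 (SE 0.17, edgeR adjusted p = 0.0297). Ldha, the lactate dehydrogenase subunit of glycolytic tissues, was at 1449, 1571 and 1346 CPM in OVX and 1770, 1386 and 1374 CPM in sham. These ranges overlapped, and with a change of -0.12 (SE 0.19) Ldha was not called (edgeR adjusted p = 0.705). Ldhb, the subunit of oxidative tissues, had a change of -0.066. Slc16a3, the low-affinity lactate exporter, was at 117, 154 and 194 CPM in OVX and 165, 297 and 297 CPM in sham, and Slc16a1, the carrier with higher affinity, at 14.1 to 18.1 and 16.1 to 22.2 CPM. Neither was called.

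Slc2a1, the widespread glucose carrier GLUT1, was at 78.8, 83.7 and 95.5 CPM in OVX and 126, 112 and 113 CPM in sham. Its groups did not overlap, and the change of -0.48 (SE 0.18) was not called (edgeR adjusted p = 0.114). Slc2a6, a carrier found on lysosomes, was at 10, 13.4 and 10.7 CPM in OVX and 19.3, 28.1 and 19.0 CPM in sham and fell by 0.90 (SE 0.21, edgeR adjusted p = 0.0311). Slc2a3 had a change of -0.33 and was not called. The pyruvate dehydrogenase kinases were not called. Pdk4, which is induced by fasting and fatty acids, had the largest positive difference of the 33 genes, at 13.0 to 19.2 CPM in OVX against 3.67 to 9.04 CPM in sham (1.15, SE 0.34, edgeR adjusted p = 0.0618). Pdk1, Pdk2, Pdk3 and Tigar, the bisphosphatase that draws sugar phosphate away from glycolysis, had changes of 0.082, -0.50, 0.38 and -0.19.

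**Figure D2:**
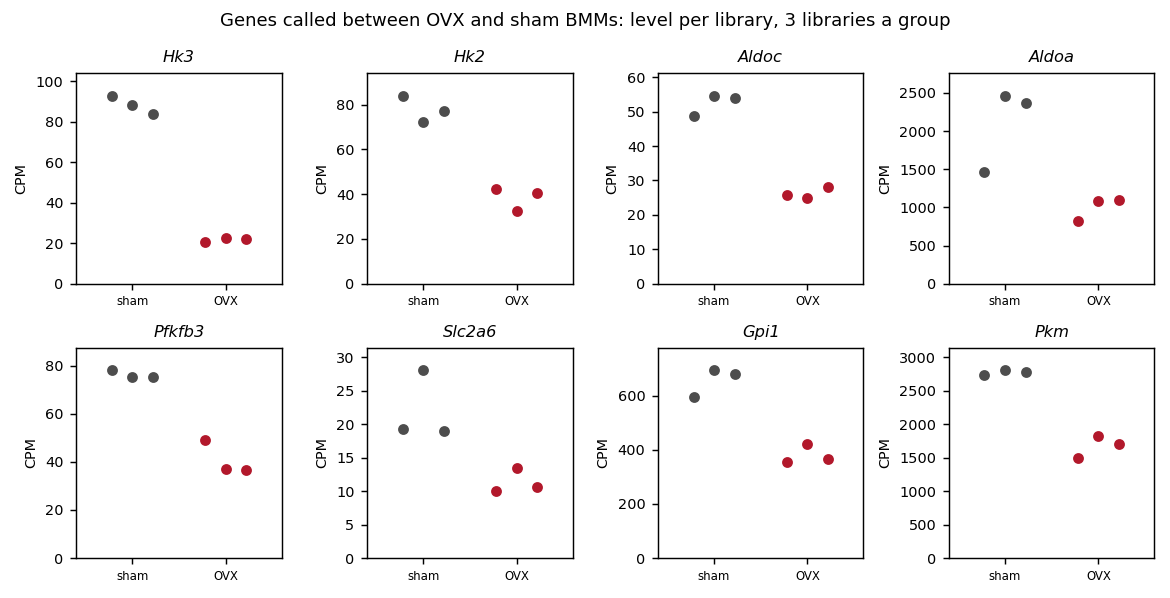
Level in CPM (y axis, from 0) of the 8 genes called between OVX and sham, with 1 point per library and 3 libraries a group. Sham replicates 2 and 3, the middle and right points, are nearly identical libraries and count as 1 sample. Every sham point lies above every OVX point here, but the genes were picked by the test between these groups. Genes that were not called, such as Pfkl, Tpi1 and Slc2a1, also had no overlap.

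Gapdh, Pgk1, Pgam1 and Eno1, the enzymes between triose phosphate and phosphoenolpyruvate, could not be read with the same confidence in BMMs. Gapdh was at 180, 210 and 142 CPM in OVX and at 405, 84.8 and 89.0 CPM in sham replicates 1 to 3. Pgk1 was at 472, 344 and 168 CPM in OVX and at 684, 156 and 147 CPM in sham. Eno1 was at 581, 628 and 384 CPM in OVX and at 884, 312 and 317 CPM in sham. In each of them sham replicate 1 stood above and the other sham libraries below all OVX libraries, and this was also so for Pgam1, at 63.4 to 77.0 CPM in OVX and 125, 57.1 and 61.1 CPM in sham. None of these 4 genes was called, with SEs from 0.29 to 0.59. Many processed pseudogenes carry copies of these transcripts. Words of 100 bases were taken from the longest annotated transcript of each gene alone. Of these, 67.03% for Pgk1, 59.0% for Eno1, 39.7% for Pgam1 and 18.2% for Gapdh were also found in another gene. For Gapdh these were 74 other genes, 70 of them annotated as pseudogenes. Pfkfb2 shared 24.9% of its words and was 1.15 times as high in sham replicate 1 as in the mean of the others. Reads from such stretches can be dropped or assigned to a copy, and the levels of these genes are uncertain for that reason. Without sham replicate 1, which left 1 sham sample, the change of Gapdh turned from -0.48 to 1.02. Pfkfb1 and Pdk4 share no such words and were 2.17 and 2.097 times as high in sham replicate 1 as in the mean of replicates 2 and 3. The part of shared sequence in the spread was not tested. Eno2 and Eno3, the neuronal and muscle enolases, had changes of -0.39 and 0.16 and were not called.

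**Figure D3:**
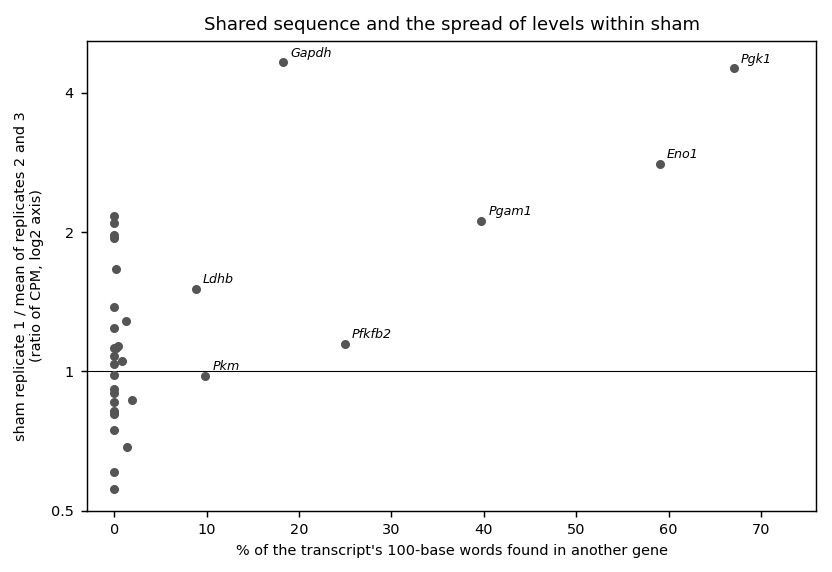
For 33 genes, the percent of the transcript's 100-base words that occur in another gene (x axis) against the ratio of CPM in sham replicate 1 to the mean of sham replicates 2 and 3 (y axis, log2 scale). Gapdh (4.66), Pgk1 (4.52) and Eno1 (2.81) have the highest ratios, while Pfkfb2, with 24.9% of shared words, has a ratio of 1.15 and Pkm, with 9.82%, one of 0.978.

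The count of called genes in OVX depended on single libraries. It was 1 without OVX replicate 2, 3 without OVX replicate 3 and 4 without OVX replicate 1. Over all genes tested, the calls fell as well, from 2193 of 16768 to 309 of 16223, 1357 of 16329 and 742 of 16404 in the same order. Without sham replicate 1, sham was 1 sample, so no count is given. Hk3 was called in each of the 15 alternatives tried, and Hk2 and Aldoc in all but the one without OVX replicate 2. The libraries also differed in GC content. Over 9909 genes, the correlation of a library's deviation from the mean with the GC content of the gene was -0.719, -0.551 and -0.396 (Spearman's rho) in OVX and 0.236, 0.656 and 0.662 in sham, and among the 33 genes the correlation of GC content with the fold change was -0.504. With the GC and length trends removed, 6 genes were called, beside 1121 of all 16768 genes tested. Hk2, Hk3, Pfkfb3 and Aldoc were among the 6 while Gpi1, Aldoa, Pkm and Slc2a6 were not. Marker genes of some cell types differed between OVX and sham, while of 14 stromal markers 1 was called higher and 1 lower. The summed macrophage markers were 42500 to 46740 CPM in OVX and 57190 to 61670 in sham, with 7 of 16 called lower and 2 higher. The 8 osteoclast markers, of which 7 reached 1 CPM in each library and Calcr did not, summed to 338 to 347 CPM in OVX and 653 to 787 in sham, with 4 of 7 tested called lower and 1 higher. The 10 neutrophil markers, of which 8 or 9 reached 1 CPM, summed to 1207 to 1340 CPM in OVX and 815 to 954 in sham, with 1 of 10 called, higher. Over all genes, 13.1% were called, which is above the 10% of the neutrophil markers. The part of these cell types in the differences was not tested.

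The MSC experiment compared MSCs alone with MSCs exposed to untreated or LPS-stimulated RAW264.7 cells, which the study used to ask how such macrophages alter MSC metabolism. In MSC+RAW-LPS against MSC, 23 of 33 genes were called, 18 higher and 5 lower, while 20.9% of all 20499 genes tested were called (11.1% higher, 9.85% lower). At a change of at least 2-fold, 12 were higher and 1 lower, and 10.9% of all genes passed (5.85% higher, 5.09% lower). The median of the 33 genes was 0.81, and that of all genes -0.013. In MSC+RAW against MSC, 15 genes were called, 12 higher and 3 lower, beside 28.6% of all genes (13.8% higher, 14.8% lower), with a median of 0.45 against -0.13 over all genes. At 2-fold, 4 were higher and 1 lower, and 16.4% of all genes passed (6.8% higher, 9.59% lower). In MSC+RAW-LPS against MSC+RAW, 20 genes were called, 14 higher and 6 lower, beside 40.2% of all genes (21.3% higher, 18.9% lower), with a median of 0.37 against 0.14. At 2-fold, 8 were higher and 5 lower, and 27.4% of all genes passed (15.4% higher, 12% lower). These 3 comparisons share their samples, so their values are set side by side and were not tested against each other.

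Slc2a1 was at 92.0 and 84.5 CPM in MSC, 123 and 113 CPM in MSC+RAW and 289 and 286 CPM in MSC+RAW-LPS. The LPS libraries stood well apart, and the gene rose by 1.70 against MSC (SE 0.15, edgeR adjusted p = 5.07e-07) and by 1.25 against MSC+RAW (SE 0.19, edgeR adjusted p = 9.96e-05). Its change of 0.45 in MSC+RAW against MSC was not called. Slc2a6 was at 19.3 and 18.6 CPM in MSC, 33.3 and 32.0 CPM in MSC+RAW and 54.0 and 63.0 CPM in MSC+RAW-LPS. It rose stepwise, by 0.81 in MSC+RAW and by 1.62 in MSC+RAW-LPS over MSC (edgeR adjusted p = 0.00547 and 2.19e-06). Slc2a3, the high-affinity carrier GLUT3, was low, at 5.84 to 10.5 CPM, and fell by 0.77 in MSC+RAW-LPS against MSC (SE 0.23, edgeR adjusted p = 0.0257).

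The hexokinases moved differently from each other. Hk2 was at 97.3 and 89.9 CPM in MSC, 78.5 and 75.6 CPM in MSC+RAW and 196 and 193 CPM in MSC+RAW-LPS. Only its LPS libraries were high, and it rose by 1.05 over MSC (SE 0.15, edgeR adjusted p = 6.85e-05) and by 1.30 over MSC+RAW (SE 0.19, edgeR adjusted p = 7.16e-05). Hk1 was at 192 and 185 CPM in MSC, 318 and 298 CPM in MSC+RAW and 353 and 409 CPM in MSC+RAW-LPS. It was higher than MSC in both co-cultures, by 0.74 (edgeR adjusted p = 0.00685) and 1.02 (edgeR adjusted p = 0.000129), and the difference of 0.28 between the co-cultures was not called. Hk3 was at 195 and 177 CPM in MSC, 250 and 246 CPM in MSC+RAW and 185 and 206 CPM in MSC+RAW-LPS, and was called in no comparison of the MSC groups. Gpi1, at 354 to 486 CPM, was not called in any of them.

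At the phosphofructokinase step, Pfkl, the liver-type subunit, was at 135 and 114 CPM in MSC, 232 and 226 CPM in MSC+RAW and 268 and 337 CPM in MSC+RAW-LPS. It rose by 0.91 in MSC+RAW and 1.28 in MSC+RAW-LPS over MSC (edgeR adjusted p = 0.00301 and 2.99e-05). Pfkp, the platelet-type subunit, rose by 0.60 and 0.83 over MSC, and Pfkm, the muscle type, was not called. Pfkfb3 was at 82.4 and 68.0 CPM in MSC, 62.9 and 61.6 CPM in MSC+RAW and 365 and 351 CPM in MSC+RAW-LPS. It had the largest rise over MSC among the 33 genes, 2.25 (SE 0.16, edgeR adjusted p = 4.42e-08), a 4.76-fold difference, and rose by 2.49 over MSC+RAW (SE 0.21, edgeR adjusted p = 4.33e-07), while its change in MSC+RAW against MSC was -0.24 and not called. Pfkfb4, a further enzyme of this family, was at 33.5 and 30.8 CPM in MSC, 47.7 and 50.5 CPM in MSC+RAW and 19.99 and 23.0 CPM in MSC+RAW-LPS. It was highest with untreated RAW264.7 cells, rising by 0.63 there (edgeR adjusted p = 0.0231), and fell by 1.22 in MSC+RAW-LPS against MSC+RAW (SE 0.19, edgeR adjusted p = 0.000141). Pfkfb1 and Pfkfb2 stayed below 8 CPM and were not called.

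**Figure D4:**
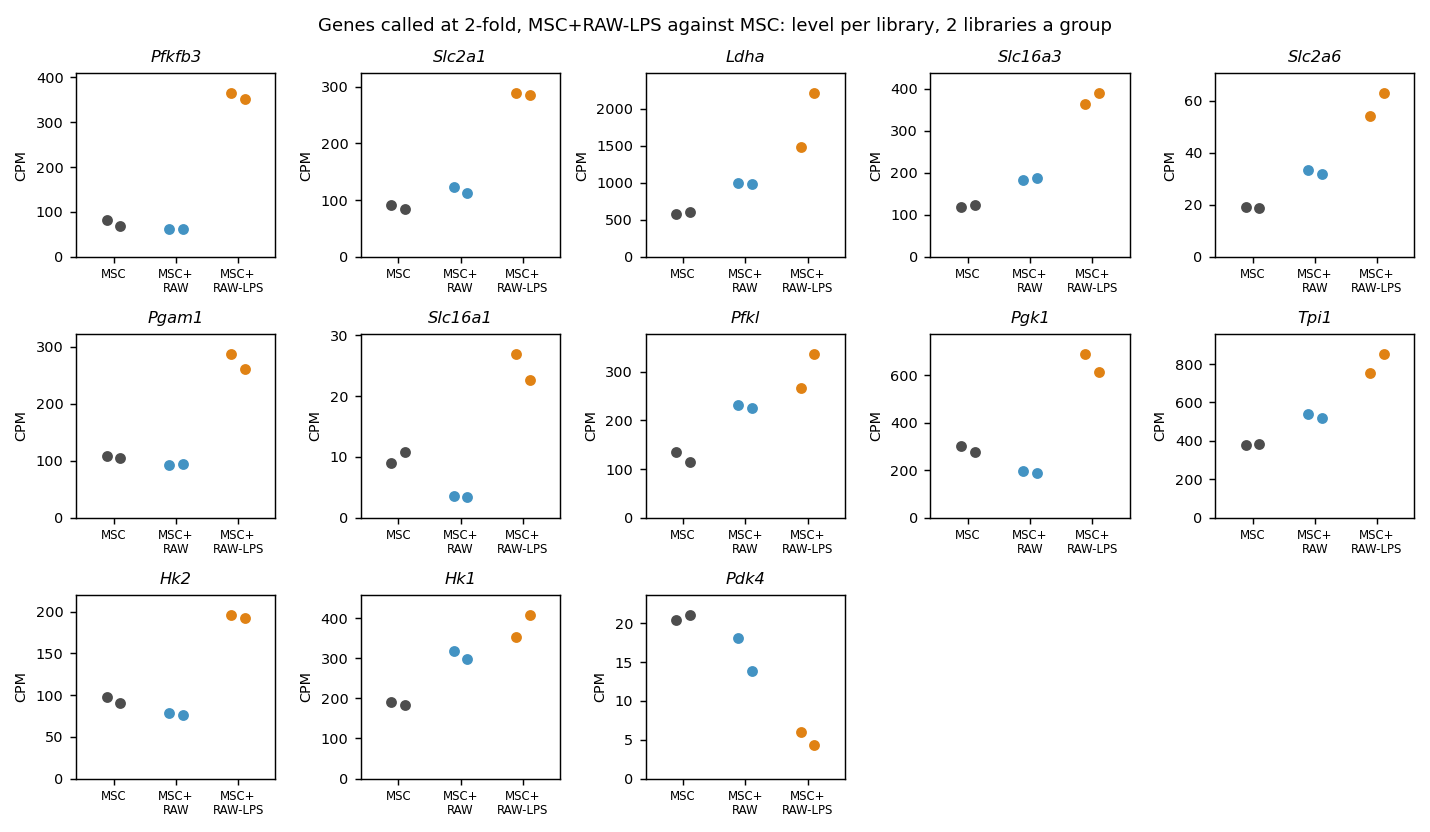
Level in CPM (y axis, from 0) of the 13 genes called at 2-fold in MSC+RAW-LPS against MSC, with 1 point per library and 2 libraries a group. The MSC+RAW libraries are nearly identical and count as 1 sample. MSC+RAW-LPS is the highest group in 12 panels and the lowest in that of Pdk4, and the points of MSC+RAW are the lowest for Pfkfb3, Pgam1, Slc16a1, Pgk1 and Hk2.

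Aldoa was at 1167 and 1093 CPM in MSC, 3707 and 3681 CPM in MSC+RAW and 1878 and 2088 CPM in MSC+RAW-LPS. It was highest with untreated RAW264.7 cells, where it rose by 1.74 (SE 0.18, edgeR adjusted p = 9.33e-05), and it rose by 0.81 in MSC+RAW-LPS over MSC (edgeR adjusted p = 0.00104). Aldoc was at 17.8 and 18.4 CPM in MSC, 44.7 and 43.1 CPM in MSC+RAW and 12.6 and 12.3 CPM in MSC+RAW-LPS. It rose by 1.30 in MSC+RAW over MSC (edgeR adjusted p = 0.000408) and fell by 1.85 in MSC+RAW-LPS against MSC+RAW (SE 0.20, edgeR adjusted p = 4.51e-06). Tpi1 was at 377 and 386 CPM in MSC, 538 and 518 CPM in MSC+RAW and 753 and 854 CPM in MSC+RAW-LPS. It rose by 1.07 in MSC+RAW-LPS over MSC (SE 0.15, edgeR adjusted p = 7.54e-05).

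The enzymes from Gapdh to Eno1 were also called higher with LPS-stimulated RAW264.7 cells. Pgam1, the phosphoglycerate mutase, was at 108 and 104 CPM in MSC, 92.1 and 94.1 CPM in MSC+RAW and 288 and 261 CPM in MSC+RAW-LPS, a rise of 1.37 over MSC (SE 0.15, edgeR adjusted p = 5.4e-06). Pgk1, which makes the first ATP of the pathway, was at 303 and 278 CPM in MSC, 196 and 189 CPM in MSC+RAW and 691 and 614 CPM in MSC+RAW-LPS. It was lowest with untreated and highest with stimulated RAW264.7 cells, with a fall of 0.56 in MSC+RAW (edgeR adjusted p = 0.0364) and a rise of 1.16 in MSC+RAW-LPS over MSC (SE 0.15, edgeR adjusted p = 3.58e-05). Gapdh was at 89.2 and 80.3 CPM in MSC, 60.3 and 67.4 CPM in MSC+RAW and 166 and 142 CPM in MSC+RAW-LPS, and rose by 0.86 over MSC (edgeR adjusted p = 0.000731). Eno1 was at 630 and 565 CPM in MSC, 651 and 636 CPM in MSC+RAW and 1048 and 1016 CPM in MSC+RAW-LPS, a rise of 0.79 over MSC (edgeR adjusted p = 0.00123). These 4 genes share transcript sequence with pseudogenes, as given above, so their levels are uncertain here too. Eno2 rose by 0.91 in MSC+RAW-LPS over MSC, and Eno3, at 2.57 to 6.73 CPM, was not called.

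Pkm was at 2801 and 2545 CPM in MSC, 4302 and 4212 CPM in MSC+RAW and 3025 and 3827 CPM in MSC+RAW-LPS. Its rise of 0.70 in MSC+RAW was called (SE 0.19, edgeR adjusted p = 0.0142) and that of 0.36 in MSC+RAW-LPS was not (edgeR adjusted p = 0.147). Ldha was at 577 and 601 CPM in MSC, 1004 and 988 CPM in MSC+RAW and 1478 and 2216 CPM in MSC+RAW-LPS. It rose by 0.79 in MSC+RAW (edgeR adjusted p = 0.0139) and by 1.65 in MSC+RAW-LPS over MSC (SE 0.19, edgeR adjusted p = 7.56e-06), although the MSC+RAW-LPS libraries differed from each other. Ldhb was at 15.3 and 15.6 CPM in MSC, 33.7 and 30.9 CPM in MSC+RAW and 9.91 and 17.6 CPM in MSC+RAW-LPS. It was high in MSC+RAW alone, by 1.10 over MSC (SE 0.27, edgeR adjusted p = 0.00702), and fell by 1.27 in MSC+RAW-LPS against MSC+RAW (edgeR adjusted p = 0.0015).

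Slc16a3 was at 119 and 123 CPM in MSC, 183 and 187 CPM in MSC+RAW and 363 and 390 CPM in MSC+RAW-LPS. The 3 groups were in ascending order without overlap, with rises over MSC of 0.64 (edgeR adjusted p = 0.0135) and 1.64 (SE 0.15, edgeR adjusted p = 7.73e-07). Slc16a1 was at 9.05 and 10.8 CPM in MSC, 3.64 and 3.48 CPM in MSC+RAW and 27.0 and 22.7 CPM in MSC+RAW-LPS. It fell by 1.44 in MSC+RAW (SE 0.26, edgeR adjusted p = 0.00119) and rose by 1.33 in MSC+RAW-LPS over MSC (SE 0.20, edgeR adjusted p = 0.000148), and its difference of 2.77 between MSC+RAW-LPS and MSC+RAW was the largest of the 33 genes (SE 0.28, edgeR adjusted p = 2.39e-06).

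The pyruvate dehydrogenase kinases went in opposite directions. Pdk1, the form induced by hypoxia, was at 31.5 and 33.1 CPM in MSC, 26.8 and 26.7 CPM in MSC+RAW and 57.4 and 59.6 CPM in MSC+RAW-LPS, a rise of 0.85 over MSC (SE 0.15, edgeR adjusted p = 0.000715). Pdk4 was at 20.4 and 21.1 CPM in MSC, 18.1 and 13.9 CPM in MSC+RAW and 6.06 and 4.28 CPM in MSC+RAW-LPS. It was the only gene of the 33 to fall by more than 2-fold in MSC+RAW-LPS against MSC, by 2.01 (SE 0.22, edgeR adjusted p = 5.79e-06). Pdk2, the widespread form, was at 11.6 and 12.4 CPM in MSC, 23.8 and 23.6 CPM in MSC+RAW and 6.72 and 7.59 CPM in MSC+RAW-LPS. It rose by 1.01 with untreated RAW264.7 cells (edgeR adjusted p = 0.00513) and fell by 0.75 with stimulated ones (edgeR adjusted p = 0.0146). Pdk3 was at 17.8 and 16.8 CPM in MSC, 9.42 and 11.5 CPM in MSC+RAW and 19.7 and 16.1 CPM in MSC+RAW-LPS. It was low in MSC+RAW, by 0.71 against MSC (edgeR adjusted p = 0.0379). Tigar was between 13.0 and 16.9 CPM in the MSC libraries and was not called.

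Of the 18 genes that rose in MSC+RAW-LPS over MSC, 16 were called higher in each of the 14 alternatives tried, and Aldoa and Eno1 lost their call only without MSC replicate 2. Of the 5 that fell, Pdk4 was called in all 14. Pfkfb4, Aldoc, Slc2a3 and Pdk2 lost their call in 2 to 4 of them, always including those without MSC replicate 1 and without MSC replicate 2. An alternative that left out an MSC or MSC+RAW-LPS library kept 1 sample in that group. In MSC+RAW against MSC, leaving out an MSC replicate set 1 sample against 1. The spread then came from MSC+RAW-LPS alone, so no count is given. With the GC and length trends removed, the 15 calls of this comparison became 7. Over all genes 4132 of 20499 were called there, against 5862 in the main fit. Of the 15 genes, 6 were still called, namely Pfkp, Aldoa, Aldoc, Pgk1, Ldhb and Slc16a1. Over the 33 genes the fold change in MSC+RAW against MSC had a correlation of 0.703 (Spearman's rho) with GC content, against 0.181 in MSC+RAW-LPS against MSC. The deviation of the library with GC content had a rho of 0.518 and 0.511 in MSC+RAW, from -0.421 to -0.284 in MSC and from -0.357 to -0.245 in MSC+RAW-LPS. Macrophage markers moved along with these groups: 9 of 16 were called lower and 2 higher in MSC+RAW-LPS against MSC, and 7 of 14 stromal markers were called higher and 1 lower, beside 20.9% of all genes. In MSC+RAW against MSC, 7 macrophage markers were higher and 4 lower and 3 stromal markers higher and 5 lower, beside 28.6% of all genes. In MSC+RAW-LPS against MSC+RAW, 4 macrophage markers were higher and 11 lower and 8 stromal markers higher and 3 lower, beside 40.2% of all genes. The 8 osteoclast markers summed to 108 to 111 CPM in MSC, 145 to 146 in MSC+RAW and 827 to 891 in MSC+RAW-LPS. Only 4 of them reached 1 CPM in each library, Calcr was at 0 in MSC and MSC+RAW, and Mmp9 alone held 700 to 739 CPM in MSC+RAW-LPS. The 10 neutrophil markers summed to 11.9 to 16.4, 31.7 to 34.7 and 370 to 557 CPM in the same order, of which S100a8 held 341 to 517 CPM in MSC+RAW-LPS, while Ltf and Retnlg were at 0 in all MSC libraries. The 5 adipocyte markers summed to 111 to 123, 86.0 to 87.4 and 28.0 to 33.9 CPM, with Lep at 0 throughout and 3 of 4 tested called lower in MSC+RAW-LPS against MSC. Their part in the differences of the glycolysis genes was not tested.

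Levels per kilobase of exon (CPM per kb) allow the isoforms of a step to be set against each other, as a description without a test. Aldoa, Eno1, Pkm, Ldha, Slc16a3, Slc2a1 and Pfkl led their steps in each of the 5 groups. Aldoa was also among the most abundant of all 34 genes, with 345 CPM per kb in OVX, 667 in sham, 388 in MSC, 1269 in MSC+RAW and 681 in MSC+RAW-LPS. Hk3 made up 48.8% to 53.3% of the hexokinase total per kb in sham and 27.9% to 32.8% in OVX, where Hk1 held 32.3% to 40.7% and Hk2 29.0% to 37.8%. Hk1 had the highest mean in OVX, but Hk2 led in OVX replicate 1. In the MSC groups Hk3 led throughout, with 56.6% to 57.7% in MSC and 40.3% to 41.0% in MSC+RAW-LPS, and Hk2 took 17.8% in MSC, 11.1% in MSC+RAW and 23.7% to 26.4% in MSC+RAW-LPS. The macrophage markers given above were present in the same libraries, and their part in the share of Hk3, a myeloid hexokinase, was not tested.

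Among the Pfkfb enzymes, Pfkfb3 held 53.9% to 54.8% in MSC, 42.0% to 43.4% in MSC+RAW and 88.7% to 89.1% in MSC+RAW-LPS, and Pfkfb4 held 34.6% to 37.9%, 51.1% to 53.3% and 7.53% to 9.07%. In BMMs Pfkfb3 held 62.3% to 67% in sham and 49.2% to 57.7% in OVX. Ldhb made up 5.19% to 5.28% of lactate dehydrogenase in MSC, 6.18% to 6.61% in MSC+RAW and 1.39% to 1.64% in MSC+RAW-LPS. The leading pyruvate dehydrogenase kinase per kb was Pdk3 in OVX, sham and MSC, Pdk2 in MSC+RAW and Pdk1 in MSC+RAW-LPS, by the mean of each group. In MSC+RAW-LPS Pdk1 held 39.0% and 43.7% and Pdk3 40.6% and 35.7%, so the libraries disagreed on the leader, while Pdk1 held 19.8% to 20.5% in MSC. Counted without regard to gene length, Pdk1 led the kinases and Pfkfb3 the Pfkfb enzymes in each of the 12 libraries. Hk1 then led the hexokinases in all libraries but sham replicate 1 and MSC replicate 1, where Hk3 led. These orders therefore depend on the length given for each gene.

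**Figure D5:**
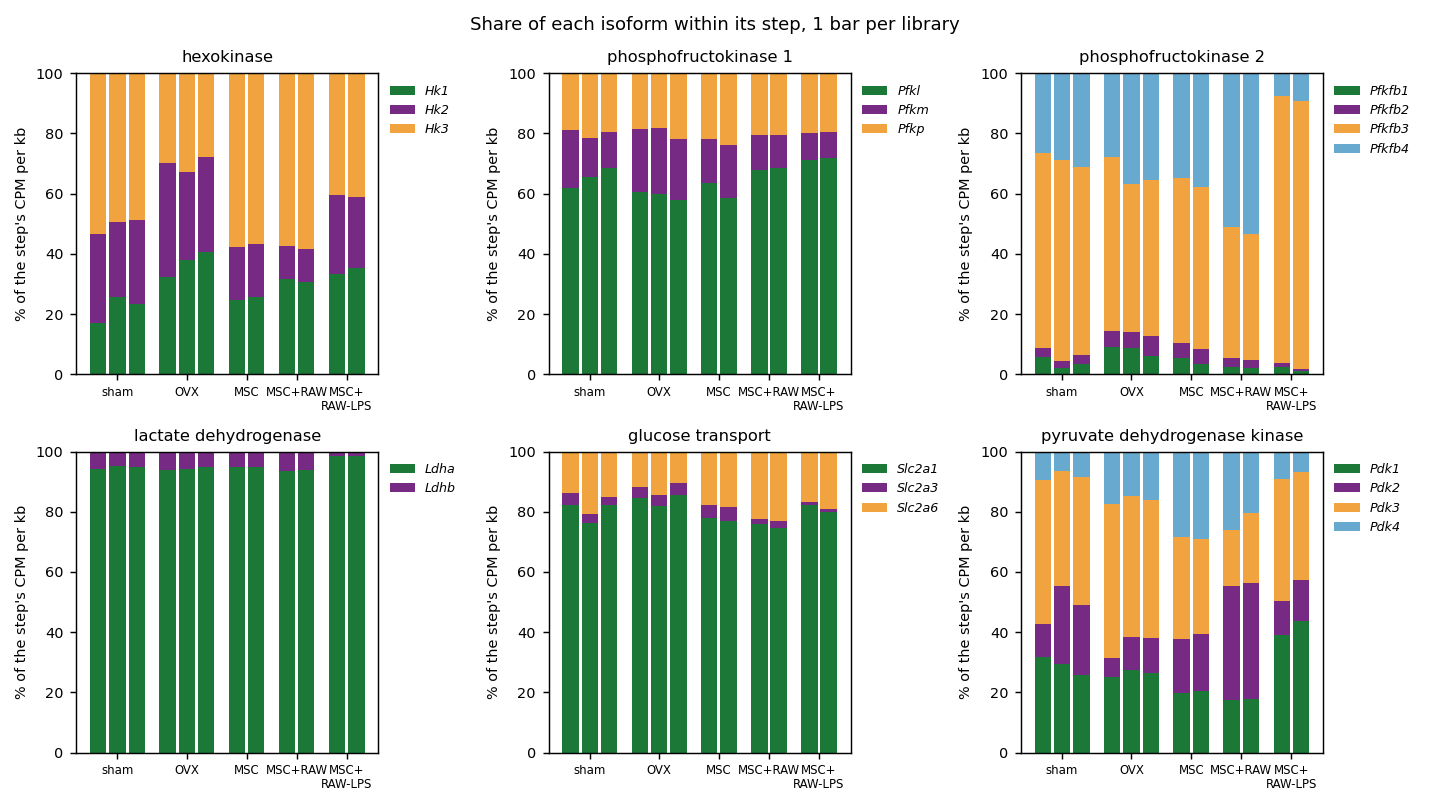
Percent of the CPM per kb of a step (y axis) held by each isoform, in 6 steps, with 1 bar per library grouped by sample group (x axis). Hk3 shrinks from sham to OVX, Pfkfb3 fills over 88% of its step in MSC+RAW-LPS, and Pdk2 is the largest share of its step in MSC+RAW and the third in MSC+RAW-LPS.

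Lists of genes beside the pathway are read against the share called over all genes, 13.1% in OVX, 20.9% in MSC+RAW-LPS against MSC, 28.6% in MSC+RAW against MSC and 40.2% in MSC+RAW-LPS against MSC+RAW. Of 17 regulators of glycolysis genes, 16 were tested. In OVX 2 were called, both higher, in MSC+RAW-LPS against MSC 7 were higher and 1 lower, in MSC+RAW against MSC 1 was higher and 3 lower, and in MSC+RAW-LPS against MSC+RAW 11 were higher and 2 lower, which is 12.5%, 50%, 25% and 81.2% of those tested. Hif1a, the oxygen-regulated subunit of HIF, was at 435, 309 and 264 CPM in OVX and 171, 143 and 149 CPM in sham, and rose by 1.07 (SE 0.25, edgeR adjusted p = 0.0289) in OVX. In the MSC experiment it was at 104 and 137 CPM in MSC, 62.4 and 61.3 CPM in MSC+RAW and 537 and 490 CPM in MSC+RAW-LPS. The MSC+RAW-LPS libraries were far above the rest, with a rise of 2.09 over MSC (SE 0.17, edgeR adjusted p = 2.14e-07) and of 3.02 over MSC+RAW (SE 0.24, edgeR adjusted p = 1.67e-07). Egln3, a prolyl hydroxylase that marks HIF for breakdown and is itself a HIF target, rose by 2.05 over MSC (SE 0.23, edgeR adjusted p = 6.48e-06). Myc, an activator of glycolysis genes, rose by 1.18 and Txnip, an inhibitor of glucose uptake, fell by 1.18 in MSC+RAW-LPS against MSC+RAW (edgeR adjusted p = 0.00071 and 0.000409). Arrdc4, of the same list, rose by 1.09 in that comparison (SE 0.19, edgeR adjusted p = 0.000309). Arnt, the partner of Hif1a, fell by 1.07 in MSC+RAW against MSC (SE 0.25, edgeR adjusted p = 0.00524).

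The pentose phosphate pathway, which branches off at glucose 6-phosphate, had 1 of 9 tested genes called in OVX, lower. In MSC+RAW-LPS against MSC, 2 of 10 were higher and 3 lower, in MSC+RAW against MSC 5 were higher and 1 lower, and in MSC+RAW-LPS against MSC+RAW 3 were higher and 7 lower. These are 11.1%, 50%, 60% and 100% of the genes tested, and the share in OVX is below that over all genes. G6pdx, its entry enzyme, was at 277 CPM in MSC+RAW and 128 to 140 CPM in MSC+RAW-LPS (-1.08, SE 0.17, edgeR adjusted p = 0.000179). Taldo1, which recycles its sugars, was at 327 to 330 and 106 to 143 CPM (-1.43, SE 0.19, edgeR adjusted p = 3.57e-05). Pgls, the lactonase of the same branch, rose by 1.48 in MSC+RAW over MSC (edgeR adjusted p = 0.000203) and fell by 1.37 in MSC+RAW-LPS against MSC+RAW (edgeR adjusted p = 5.11e-05). Shpk, a kinase of the sugar sedoheptulose, was low, at 1.23 to 6.24 CPM, and fell by 1.497 in MSC+RAW-LPS against MSC (edgeR adjusted p = 0.00444).

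Of the glycogen genes, 0 of 18 were called in OVX, and in MSC+RAW-LPS against MSC 4 were higher and 4 lower (44.4%). Gys1, the glycogen synthase, was at 52.7 to 54.2 CPM in MSC and 145 to 160 CPM in MSC+RAW-LPS and rose by 1.51 (SE 0.15, edgeR adjusted p = 2.07e-06). Gyg, the primer of glycogen, fell by 1.21 and Phka2, a subunit of phosphorylase kinase, by 1.93 in the same comparison (edgeR adjusted p = 8.44e-05 and 5.86e-07), and Ppp1r3c, which brings a phosphatase to glycogen, fell by 2.27, with 5.40 and 6.27 CPM in MSC and 0.766 to 1.65 CPM in MSC+RAW-LPS (edgeR adjusted p = 0.00037). In MSC+RAW against MSC 3 glycogen genes were called, all lower (16.7%, below the share over all genes), which were Gyg (-1.97), Ugp2 (-1.34) and the branching enzyme Gbe1 (-1.005), and in MSC+RAW-LPS against MSC+RAW 8 were higher and 3 lower (61.1%), with Gbe1 (2.005), Phka2 (-1.82), Ppp1r3c (-1.63) and Ugp2 (1.62) changing most. The genes for the entry of pyruvate into mitochondria had 0 of 11 called in OVX and 0 of 11 in MSC+RAW-LPS against MSC, 3 lower in MSC+RAW against MSC and 3 higher in MSC+RAW-LPS against MSC+RAW, 27.3% in both, which does not exceed the share over all genes. Dld, a subunit of the pyruvate dehydrogenase complex, was at 41.4 to 54.9 CPM in MSC, 15.3 to 16.6 CPM in MSC+RAW and 42.5 to 50.8 CPM in MSC+RAW-LPS, with a fall of 1.57 in MSC+RAW (SE 0.23, edgeR adjusted p = 0.000345) and a rise of 1.52 from there to MSC+RAW-LPS. Pdpr, a regulator of the phosphatase of that complex, fell by 1.01 in MSC+RAW (edgeR adjusted p = 0.0119).

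Among 3 gluconeogenesis genes tested, 0 were called in OVX and 1 was lower in MSC+RAW-LPS against MSC, while all 3 were higher in MSC+RAW against MSC and all 3 lower in MSC+RAW-LPS against MSC+RAW. G6pc3, the ubiquitous glucose 6-phosphatase, was at 29.0 to 29.9 CPM in MSC, 77.0 to 79.2 CPM in MSC+RAW and 30.2 to 36.9 CPM in MSC+RAW-LPS. Slc37a4, the glucose 6-phosphate carrier of the endoplasmic reticulum, rose by 1.27 and then fell by 1.26 in the same comparisons, and Pck2 fell by 1.21 in the latter. Of other sugar and monocarboxylate carriers, 1 of 10 was higher and 1 lower in OVX, and 3, 3 and 4 of 14 were called in the MSC comparisons in the order above. Their shares, 20%, 21.4%, 21.4% and 28.6%, lie near or below those over all genes except in OVX, where 2 genes make up the 20%. Slc16a7, a pyruvate carrier, fell by 1.70 in MSC+RAW-LPS against MSC (SE 0.29, edgeR adjusted p = 0.000467) and by 1.33 in MSC+RAW against MSC. Slc2a10 rose by 1.13 in MSC+RAW-LPS over MSC, and Slc16a4, at 8.41 CPM or less, rose by 1.27 in OVX (SE 0.33, edgeR adjusted p = 0.0408) and by 2.18 in MSC+RAW-LPS against MSC+RAW. In that last comparison Slc2a9 and Slc2a8 fell by 1.24 and 1.03, and Emb, a chaperone of monocarboxylate carriers, rose by 1.04. Of other glycolysis genes, 0 of 8 were called in OVX and 1, 1 and 3 of 10 in the MSC comparisons. Galm, the mutarotase of glucose, fell by 1.17 in MSC+RAW-LPS against MSC (SE 0.20, edgeR adjusted p = 0.000435) and by 1.14 against MSC+RAW, where the muscle mutase Pgam2, at 2.50 CPM or less, fell by 2.26 (edgeR adjusted p = 0.0288). Of the processed copies of the 34 genes, 0 of 3 were called in OVX and 2, 1 and 1 of 6 in the MSC comparisons, all of them higher. Eno1b, a copy of Eno1, rose by 1.16 in MSC+RAW-LPS over MSC (SE 0.18, edgeR adjusted p = 0.000222).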

How the data were processed

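Poly(A) RNA was sequenced from 6 BMM libraries (OVX and sham) and 6 MSC libraries (MSC, MSC+RAW and MSC+RAW-LPS). The deposited counts are raw reads per gene that the authors made with Trim Galore 0.6.7, HISAT2 2.1.0 on GRCm38 and featureCounts 2.0.1. How strands and read pairs were counted is not given in the sources used here. Between 60.0% and 71.4% of counts from 1 to 20 were even, so counts are not single independent molecules. The MSC+RAW and MSC+RAW-LPS columns name a group but not a sample.

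Libraries of a group were summed into 1 sample where their excess over sampling noise hardly grew with counts. Each table was fitted whole with edgeR 4.0.16 (R 4.3.3; TMM, filterByExpr, two-sided quasi-likelihood test), with p-values adjusted by Benjamini-Hochberg over all genes tested and a call at 0.05. In the sham pair, chi-square was 2.48 times its sampling expectation at low counts and 2.71 times at high counts. In the MSC+RAW pair it was 3.14 and 3.26 times. The ratio of high over low counts was thus 1.09 and 1.04 in these summed pairs (limit 1.5), and 3.65 to 16.8 in other pairs. CPM used effective library sizes, and CPM per kb used exon length. The fit was tested on simulated data. DESeq2 1.42.0, removal of GC and length trends (lowess offsets), other filters and scalings, and left-out libraries were alternatives.

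All 34 genes are named by step. Values per library are given for genes called at 2-fold, the leading isoform of each step, Hk2 and Slc2a1. Other pathway genes are named where called at 2-fold with a mean of at least 1 CPM, at most 4 a list and comparison. Arrdc4 was added beyond that limit. Promoters are shown for the 4 largest called rises. The genes and lists were chosen with earlier results of these data known. A second row named Aldoa, with at most 17 counts, was left out. No protein sequences were used here.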

Additional observations from a re-analysis of the deposited data

How the results depend on the processing

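Against 8, 23, 15 and 20 called genes (OVX against sham, MSC+RAW-LPS against MSC, MSC+RAW against MSC, MSC+RAW-LPS against MSC+RAW), a call at 2-fold left 2, 13, 5 and 13. With all libraries kept separate, MSC+RAW against MSC gave 23 calls, and with the number series in the column names as a block, which was chosen after seeing the data, 25. The same block gave 10, 25 and 26 calls in the other comparisons. In the merged fit with GC and length trends removed, MSC+RAW against MSC gave 7. In BMMs the replicate block, with libraries separate, gave 18 calls, 2 higher and 16 lower. Same-numbered libraries had correlations of deviations of 0.409, -0.0261 and 0.353, and differently numbered ones from -0.482 to 0.304. Because sham replicates 2 and 3 are nearly identical, these values cannot decide whether the numbers pair the samples. The main fit did not pair them. Over all genes, 6318 were called with the replicate block and 4144 without it, against 2193 in the merged fit, 1121 with GC and length trends removed, 3446 by DESeq2 and 3380 without a filter. No paired analysis was possible by the labels' replicate numbers for the MSC groups, because the MSC+RAW and MSC+RAW-LPS columns cannot be tied to those numbers. Leaving out single libraries gave 1 to 13, 17 to 25, 7 to 21 and 18 to 24 calls. Gapdh in OVX against sham, -0.48 in the main fit, ranged from -0.61 to 1.02 and reversed without sham replicate 1. That fit had 1 sham sample, so its calls are not given. Without OVX replicate 2, Hk3 was the called gene and 309 of all genes were called. The cause of these shifts was not tested, except that a left-out library also leaves fewer samples. RLE scaling, DESeq2 and both other filters kept the counts of called genes among the 33 within 1.5 times. Depth limits the genes with few counts, such as Pklr (at most 2 in a library) and Pfkfb1 (19 to 208).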
